A study of Arabidopsis thaliana with 12 samples.

Results

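DFR (locus AT5G42800) encodes dihydroflavonol reductase, the enzyme that commits the flavonoid pathway of Arabidopsis thaliana to anthocyanins and proanthocyanidins. It was measured by 1 feature of the array, numbered 13534664, which was annotated to DFR alone. DFR is 1 of 16548 genes with a feature annotated to a single gene, among 38408 features in all. No other feature was annotated to DFR, and no other feature held the same values on every array. The gene was chosen by its estradiol difference in roots on 10 of the arrays, so that difference is given below as a description.

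All plants carried an estradiol-inducible transgene for CLE3, a small secreted signalling peptide, and the study asked which genes act downstream of CLE3. Roots of 7-day-old seedlings were exposed for 24 h to β-estradiol, at 5 mM as the labels write it, or to the solvent DMSO before the organs were harvested apart. The titles gave 4 groups of 3 arrays: root DMSO, root estradiol, shoot DMSO and shoot estradiol. In the source-name label all root samples carry estradiol and all shoot samples DMSO, which conflicts with the titles, so groups were taken from the titles and from the descriptions that match them. The labels used here do not give the promoter driving the transgene, the number of lines or the number of plants per sample. No array came from plants without the transgene, so an effect of estradiol itself and an effect of CLE3 cannot be told apart. CLE3 itself had 0 annotated features, and its induction was not analysed here. Whether replicates were separate cultures is not stated, so a p-value here reflects the spread among these samples alone, and that spread may be technical.

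Flavonoids are built from phenylalanine through an early set of enzymes that make chalcones, flavanones and dihydroflavonols. DFR reduces dihydroflavonols to leucoanthocyanidins, and later enzymes oxidise, glycosylate and acylate these into the anthocyanins that colour stems and cotyledons of Arabidopsis seedlings, or reduce them to proanthocyanidins of the seed coat. The late genes, DFR among them, are known to be switched on by complexes of MYB, bHLH and WD40 proteins and to respond to light, sugar and stress.

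The arrays titled Root DMSO Rep3 and Shoot Est Rep3 stood apart from their groups. Over all features, Root DMSO Rep3 had a mean correlation of 0.874 with the 5 other root arrays and 0.981 with the shoot arrays, and Shoot Est Rep3 had 0.986 with root arrays and 0.874 with shoot arrays. The 4 root markers, the ER body genes PYK10, BGLU21, BGLU22 and NAI2, averaged 11.42 to 11.52 (log2 level) on the other root arrays and 6.75 to 7.41 on the other shoot arrays. Their mean was 6.78 on Root DMSO Rep3 and 11.62 on Shoot Est Rep3. The 4 photosynthesis markers, SBPASE, PRK, RCA and LHCB4.1, averaged 7.18 to 8.13 on the other root arrays, 10.59 to 10.71 on the other shoot arrays, 10.69 on Root DMSO Rep3 and 7.99 on Shoot Est Rep3. The profile of each of these arrays was therefore that of the organ its title does not name. Results are given for all 12 arrays as titled and for the 10 others.

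DFR had a low value in roots and a high value in shoots. In roots under DMSO the log2 level of DFR was 2.69 on replicate 1, 2.55 on replicate 2 and 7.39 on the array titled replicate 3. In roots under estradiol it was 3.09, 3.22 and 3.47. The first 2 root DMSO arrays and all 3 root estradiol arrays were low, and the root DMSO array with the shoot profile was high. In shoots under DMSO the level was 7.81, 7.92 and 7.80, and in shoots under estradiol it was 7.54, 8.004 and, on the array titled replicate 3, 3.11. That last value lay among those of the roots.

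Without the 2 arrays, the 5 root values spanned 0.92 on the log2 scale and the 5 shoot values 0.47, and the lowest shoot array stood 4.07 above the highest root array. Root DMSO Rep3 lay only 0.15 below the lowest of the shoot arrays. Ordered by level on the 10 arrays, the groups were root DMSO (2.62 ± 0.10, SD, n = 2), root estradiol (3.26 ± 0.19, SD, n = 3), shoot estradiol (7.77 ± 0.33, SD, n = 2) and shoot DMSO (7.84 ± 0.07, SD, n = 3). The shoot groups, neighbours in that order, did not differ beyond their spread. With all 12 arrays the mean of root DMSO became 4.21 ± 2.75 (SD, n = 3) and that of shoot estradiol 6.22 ± 2.70 (SD, n = 3).

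**Figure D1:**
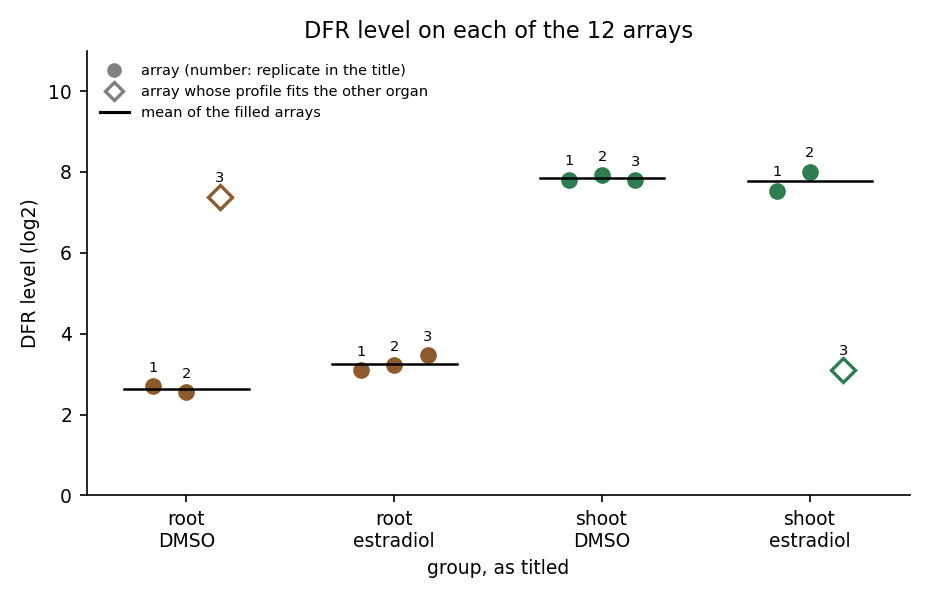
Log2 level of DFR on each array, by group as titled. Points are arrays with their replicate number, open diamonds the 2 arrays with the profile of the other organ, and lines the mean of the filled points. Filled root points lie between 2.55 and 3.47 and filled shoot points between 7.54 and 8.004, while the open points sit at 7.39 and 3.11.

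DFR was higher in shoots than in roots under both treatments on the 10 arrays. Root minus shoot was -5.22 under DMSO (log2 difference, SE 0.17, limma adjusted p = 1.974e-07) and -4.51 under estradiol (SE 0.17, limma adjusted p = 3.291e-07). Every root array lay below every shoot array for DFR, as for 20.2% of all features. An organ difference was common on these arrays: limma called 15038 features (39.2%) under DMSO and 15096 (39.3%) under estradiol, and 19.9% and 19.8% of all features were called lower in roots. The median difference over all features was -0.09 under DMSO and -0.07 under estradiol. The table holds no detection call, so how far the root values of DFR lay above background was not analysed here, and no fold is given from them. RNA was taken from whole organs, so fewer cells expressing DFR and less DFR RNA per cell cannot be told apart.

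On all 12 arrays as titled, the organ difference of DFR was -3.63 under DMSO (SE 1.41, limma adjusted p = 0.273) and -2.96 under estradiol (SE 1.41, limma adjusted p = 0.306), so the calls were lost. Leaving out Root DMSO Rep3 alone gave -5.22 under DMSO (limma adjusted p = 0.0276), and leaving out Shoot Est Rep3 alone gave -4.51 under estradiol (limma adjusted p = 0.0375). With 12 arrays limma called 0 of 38408 features (0%) between organs under DMSO, with 6642 at an unadjusted p under 0.05, and 1 feature (0.0026%) under estradiol, with 5701 at an unadjusted p under 0.05. Both organ comparisons draw on the same arrays as the estradiol comparisons below, so they are not independent of them.

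In roots, DFR had a higher mean under estradiol than under DMSO on the 10 arrays. The 3 estradiol arrays, at 3.09 to 3.47, lay above the 2 DMSO arrays, at 2.55 and 2.69, with a gap of 0.40 between the groups. All of these are low values: the lower quartile of all features was 2.92 to 3.12 on the arrays, above both DMSO values. Estradiol minus DMSO was 0.64 on the log2 scale (SE 0.17, 95% interval 0.25 to 1.03). Limma did not call it (adjusted p = 0.999), and the call was made for 1 feature of 38408 (0.0026%), with 1440 at an unadjusted p under 0.05. A separation of this kind, with every estradiol array above every DMSO array, was found for 9.65% of all features. These values chose the gene, and nothing is read from them.

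As titled, the sign of the root difference turned. With Root DMSO Rep3 included, estradiol minus DMSO was -0.95 (SE 1.41, limma adjusted p = 0.904). No feature was called in that comparison (0 of 38408, 0%), with 839 at an unadjusted p under 0.05. The change came with 1 array: leaving out Root DMSO Rep3 alone returned the difference to 0.64. The 4 photosynthesis markers, which are nuclear genes, overlapped between treatments in roots, with mean levels of 7.41 and 7.86 under DMSO and 7.18, 7.80 and 8.13 under estradiol. The chloroplast-encoded psbL and psaJ, described below, are named because they followed DFR over these same root arrays. Their separation of the treatments was built in by that choice and is no separate result. Levels of psbL were 10.28 and 10.25 under DMSO and 10.53, 10.54 and 10.72 under estradiol. Those of psaJ were 10.77 and 10.66 against 10.95, 10.99 and 11.12. The part of photosynthesis genes in the DFR difference was not tested.

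In shoots, DFR levels under the treatments overlapped. The estradiol arrays, at 7.54 and 8.004, lay on either side of the 3 DMSO arrays, at 7.80 to 7.92. Estradiol minus DMSO was -0.07 on the 10 arrays (log2 difference, SE 0.17, 95% interval -0.46 to 0.32, limma adjusted p = 0.961). Limma called 0 features (0%) in shoots, with 3125 at an unadjusted p under 0.05. Without shoot estradiol replicate 1 the difference was 0.16, and without replicate 2 it was -0.30, so the sign rested on which of these arrays was kept. With Shoot Est Rep3 included the difference was -1.63 (SE 1.41, limma adjusted p = 0.800), and limma again called 0 features (0%), with 1820 at an unadjusted p under 0.05.

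The difference of the estradiol effects, shoots minus roots, was -0.71 for DFR on the 10 arrays (log2, SE 0.24, 95% interval -1.26 to -0.16). It did not pass in limma (adjusted p = 0.984), and 1 feature did (0.0026%), with 1828 at an unadjusted p under 0.05. An effect in roots that differs from that in shoots is thus not shown for DFR, and this value contains the root difference for which the gene was chosen. On all 12 arrays it was -0.67 (SE 2.00, limma adjusted p = 1), with 0 features called (0%) and 799 at an unadjusted p under 0.05.

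**Figure D2:**
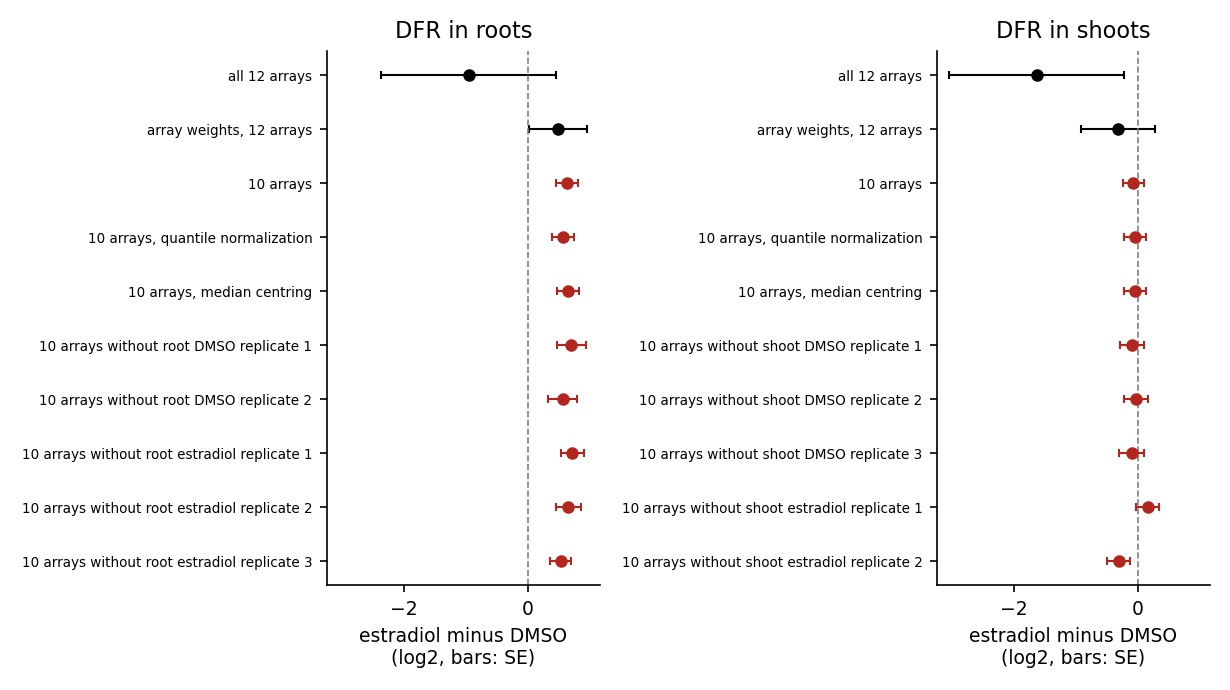
Estradiol minus DMSO for DFR in roots (left) and shoots (right), in log2 units, with bars of 1 SE. Black points use all 12 arrays and red points the 10 arrays, also under other scalings and with single arrays left out. In roots the value is -0.95 as titled and 0.53 to 0.72 when single arrays are left out of the 10, while in shoots the latter values run from -0.30 to 0.16.

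Other genes of the pathway were taken from lists of flavonoid genes. Of 19 late anthocyanin and proanthocyanidin genes, 11 had a single-gene feature, DFR included. Only 1 of 15 early enzymes, 2 of 17 positive regulators and 0 of 13 negative regulators had one, so the genes known to act directly before DFR and most of those known to regulate it were not analysed here.

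The late genes shared the direction of the DFR organ difference in part. On the 10 arrays 5 of the 10 late genes besides DFR were called under DMSO, all lower in roots, and 6 of 10 under estradiol, again all lower in roots. Of all features, 19.9% and 19.8% were called lower in roots in these comparisons. The median root minus shoot difference of the 10 was -1.03 under DMSO and -1.11 under estradiol. None reached the size of the DFR difference in this list. The list also holds glycosyltransferases of flavonols, UGT78D1 and UGT78D3 among them, so it is not limited to anthocyanin synthesis. UGT78D1 was among the 5 called under DMSO.

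Glycosylation is the step that makes anthocyanins stable. UGT78D1, a rhamnosyltransferase of flavonols, had levels of 2.44 to 3.02 on the 5 root arrays and 3.95 to 4.23 on the 5 shoot arrays, a root minus shoot difference under DMSO of -1.41 (SE 0.19, limma adjusted p = 0.000386). UF3GT, a glycosyltransferase that adds xylose to anthocyanins, had 2.42 to 3.01 in roots and 3.79 to 4.68 in shoots, a difference of -1.32 (SE 0.25, limma adjusted p = 0.00285). Both genes lay lower on every root array than on every shoot array, as did DFR and 20.2% of all features. Their root values lay near or below the lower quartile of all features (2.92 to 3.12 on the arrays). Their shoot values lay below the array medians (4.99 to 5.09). UGT78D2, which glucosylates anthocyanidins and flavonols, was not called, with a difference of 0.04, whose sign changes under the replicate block (-0.06) and without root DMSO replicate 2 (-0.14). UGT78D3, a flavonol arabinosyltransferase, had -0.59 under DMSO and was not called.

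Acylation follows glycosylation. AT5MAT, the malonyltransferase of anthocyanins, had 3.50 to 3.99 in roots and 4.33 to 5.66 in shoots, a root minus shoot difference under DMSO of -1.53 (SE 0.33, limma adjusted p = 0.00505). Under estradiol its call was lost without shoot estradiol replicate 1 (difference -1.24, limma adjusted p = 0.0647). Other listed genes are given by locus alone in the annotation. In the list AT1G03940 and AT1G03495 are the acyltransferases 3AT1 and 3AT2. AT4G14090 and AT1G06000 are listed as UGT75C1 and UGT89C1, which are glycosyltransferases and do not belong to the acylation step. AT4G14090 differed by -1.84 under DMSO (SE 0.22, limma adjusted p = 0.000143) and AT1G03940 by -1.64 (SE 0.24, limma adjusted p = 0.000507). Both lay lower on each of the 5 root arrays than on any of the 5 shoot arrays, as did 20.2% of all features. AT1G03495 was called under estradiol, at -0.96 (SE 0.28, limma adjusted p = 0.0246), and not under DMSO, at -0.74 (limma adjusted p = 0.0686), where 6 alternatives called it, such as array weights (limma adjusted p = 0.0404). The call under estradiol was lost with the compared groups alone (limma adjusted p = 0.0765), without any 1 of the 3 root estradiol arrays (limma adjusted p = 0.0515, 0.0631 and 0.0577) and without shoot estradiol replicate 2 (-0.37, limma adjusted p = 0.0826). AT1G06000 was not called, at 0.31 under DMSO. BAN, the anthocyanidin reductase of the seed coat, had levels of 1.88 to 2.24 in roots and 1.90 to 2.26 in shoots, which overlapped. All of these lay below the lower quartile of all features (2.92 to 3.12 on the arrays), so the overlap does not show equal expression.

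Not all late genes had values of the other organ on the 2 arrays with its profile. On Root DMSO Rep3, AT5MAT stood at 5.21, UGT78D1 at 3.79 and UF3GT at 4.06, and on Shoot Est Rep3 at 3.36, 2.73 and 2.61. The values of AT5MAT and UF3GT on Root DMSO Rep3 lay within the range of the shoots, and that of UGT78D1 lay just below it and above every root array. On Shoot Est Rep3, AT1G06000 stood at 7.62, within its range on the shoot arrays (7.14 to 7.73) and below its range on the root arrays (7.81 to 7.90). AT1G03495 stood there at 5.05, between the highest root array (4.96) and the lowest shoot array (5.11).

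**Figure D3:**
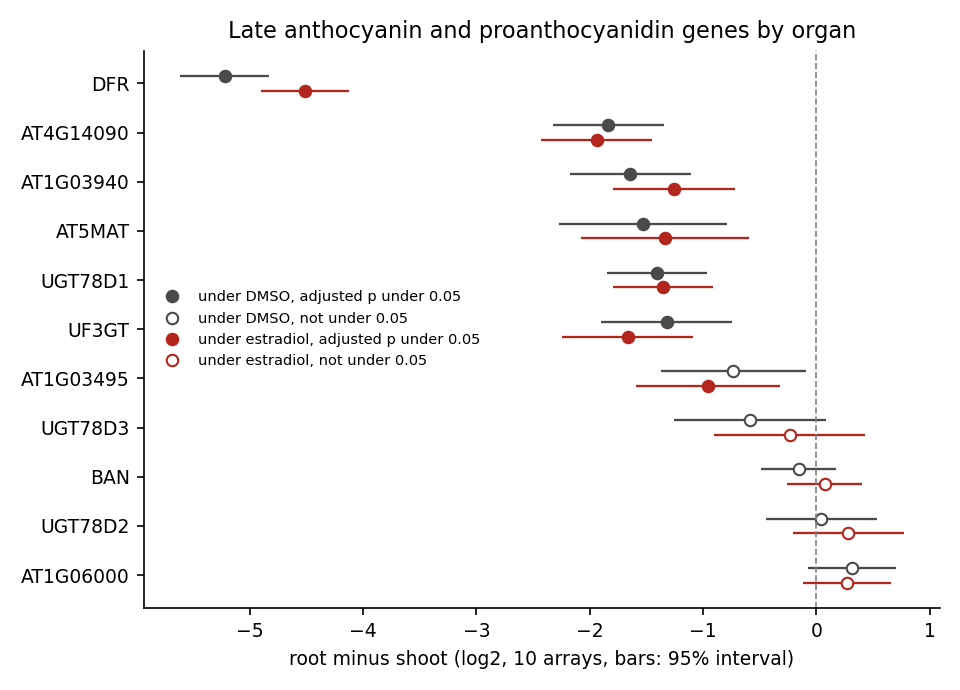
Root minus shoot difference (log2, 10 arrays) of DFR and the 10 other measured late genes, under DMSO (grey) and estradiol (red), with 95% intervals from limma. Filled points passed an adjusted p of 0.05. DFR lies at -5.22 and -4.51, and the next gene, AT4G14090, at -1.84 and -1.94.

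For estradiol, limma called 0 of the 10 other late genes in roots and 0 of 10 in shoots on the 10 arrays, with 0 and 0 at an unadjusted p under 0.05. Since 0.0026% and 0% of all features were called, these counts are no result about the late genes. In roots 7 differences were positive and 3 negative, from -0.44 for UF3GT to 0.45 for AT1G03940, with a median of 0.08 against -0.01 over all features. In shoots 5 were positive and 5 negative, from -0.14 to 0.14. UF3GT had the same value, 3.01, on both root DMSO arrays.

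Upstream of DFR, CHIL, a chalcone isomerase-like protein that raises the output of the early pathway, had 7.26 to 7.48 in roots and 6.55 to 7.08 in shoots, opposite in direction to DFR. Its root minus shoot difference was 0.50 under DMSO (SE 0.18, limma adjusted p = 0.0598) and 0.57 under estradiol (SE 0.18, limma adjusted p = 0.0388). The difference under DMSO was called under 8 alternatives, such as array weights (limma adjusted p = 0.0296) and quantile normalization (0.0496). The call under estradiol was lost under 8, namely median centring (0.0610), the compared groups alone (0.0694) and leaving out any 1 of 6 arrays, with a limma adjusted p of up to 0.283. HYH, a bZIP factor of light signalling related to HY5, was not called, at -0.35 under DMSO (limma adjusted p = 0.167). The other measured entry of the regulator list, AT1G70000, was higher in roots by 0.56 (SE 0.13, limma adjusted p = 0.00738). That call did not hold without root DMSO replicate 1 (limma adjusted p = 0.0539), nor did the one under estradiol without shoot estradiol replicate 2 (limma adjusted p = 0.0883).

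Reductases listed as relatives of DFR mostly took the other direction. Of 5 measured, 4 were called under DMSO and 3 under estradiol, all higher in roots, where 19.3% and 19.5% of all features were called higher. CCR2, a cinnamoyl-CoA reductase of the lignin branch, had 8.55 to 8.81 in roots and 4.16 to 5.25 in shoots, a difference of 4.13 under DMSO (SE 0.28). On Root DMSO Rep3 it was 4.58 and on Shoot Est Rep3 8.79, the mirror image of DFR. AT2G23910 was higher in roots by 2.43, AT5G19440 by 1.33 and AT4G27250 by 0.94, the last of which lost its call without root DMSO replicate 1 (limma adjusted p = 0.103). AT1G25460 was not called, at -0.26.

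Genes whose levels followed DFR within an organ were found by Pearson's r over the arrays, among genes with a mean log2 level of at least 5 there. The points are 5 arrays in each organ, and a shift of a whole array enters every gene on it, so the r values are given as descriptions. In roots 152 of 8015 genes (1.90%) had r above 0.9, and 223 had r below -0.9. In shoots 320 of 7690 genes (4.16%) had r above 0.9, and 145 had r below -0.9.

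In roots the highest r belonged to HRGP1 (0.999), a hydroxyproline-rich cell wall glycoprotein, and CYS1 (0.996), a cystatin that inhibits cysteine proteases. They were followed by psaJ (0.996), a subunit of photosystem I, petL (0.992), of the thylakoid cytochrome complex, and psbL (0.991), of photosystem II, which are encoded in the chloroplast genome. These r values include the root treatment difference by which DFR was chosen. With the mean of each treatment taken off, r was 0.999 for HRGP1, 0.974 for CYS1, 0.974 for psaJ, 0.979 for petL and 0.940 for psbL. The genes were ranked highest on these same arrays, so high values here also come with that choice and are no separate check. HRGP1 was 6.53 and 6.41 in roots under DMSO and 6.86, 6.98 and 7.23 under estradiol, in the same order over the arrays as DFR. That order and the rise under estradiol come with the ranking and are no separate result. In shoots HRGP1 was far lower, at 1.54 to 2.95. It thus followed DFR across root arrays while lying on the other side of the organ difference. On all 6 root arrays as titled the r of HRGP1 was -0.939 and that of CYS1 -0.813, while psaJ had 0.994, petL 0.786 and psbL 0.998. These r values include Root DMSO Rep3, which had the shoot profile. The organ difference of each gene therefore enters them, and they are no check of likeness within roots.

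In shoots the highest r belonged to AT5G66930 (0.998), which the annotation lists as the autophagy gene ATG101, and THFS (0.997), a formyltetrahydrofolate synthetase. AT3G22060 (0.997), AT4G31530 and AT5G06060 (0.995) came next and are known here by locus only. The spread of DFR in shoots was small, and its lowest and highest values were those of the 2 estradiol arrays. On the 6 shoot arrays as titled AT5G66930 had an r of -0.925 and THFS of -0.669, while AT4G31530 had 0.992. Shoot Est Rep3, with the root profile, is among these arrays, so the organ difference enters these values too.

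Over both organs, with each organ's mean taken off, 10 arrays gave 2 of 6813 genes (0.0294%) with r above 0.9, psbL (0.934) and nad1 (0.923), a mitochondrial subunit of respiratory complex I. The others named by the same ranking were rps4 (0.888), a chloroplast ribosomal protein, psbI (0.885), psaJ (0.885), AT2G07678 (0.883), AT1G19290 (0.874) and AT1G65920 (0.866). These r values include the root treatment difference by which DFR was chosen. With the mean of each organ and treatment taken off, r was 0.863 for psbL, 0.804 for nad1, 0.631 for rps4, 0.716 for psbI, 0.632 for psaJ, 0.595 for AT1G19290 and 0.716 for AT1G65920, while AT2G07678 had 0.911. All 8 were ranked on the same 10 arrays, so these values are no separate check. Of these 8 genes psbL, rps4, psbI and psaJ are chloroplast-encoded. Their levels spanned less than those of DFR in roots. For example, psbL ran from 10.25 to 10.72 in roots and from 11.94 to 12.30 in shoots. The 3 lowest r were those of RBP45B (-0.948), an RNA-binding protein, AT4G11270 (-0.907) and AT5G64500 (-0.895). RBP45B moved only from 10.496 to 10.725 in roots and from 10.61 to 10.70 in shoots.

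No flavonoid gene was among those ranked highest or lowest, but the level filter let only 8 of the 18 measured list members enter the ranking in roots, 9 in shoots and 6 over both organs. UF3GT was among those that could not enter. Without the filter, over both organs the 18 measured members of the lists had r between -0.454 (AT4G27250) and 0.594 (AT1G03940), with a median of -0.07. The median over the 6813 genes past the filter was -0.06. These sets are unlike, since most of the 18 members did not pass the filter. Within an organ, the median r of the 18 members was -0.14 in roots, with 8 positive, and 0.002 in shoots, with 9 positive. Some members had a high r in 1 organ and not in the other, and those named next are among the extremes of the list. UF3GT had r = 0.951 in shoots and -0.771 in roots, CHIL 0.920 in shoots and -0.101 in roots, and AT1G03495 0.888 in shoots and -0.903 in roots. AT1G03940 had 0.835 in roots and 0.383 in shoots. Whether these differences between organs exceed what 5 arrays give was not tested.

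**Figure D4:**
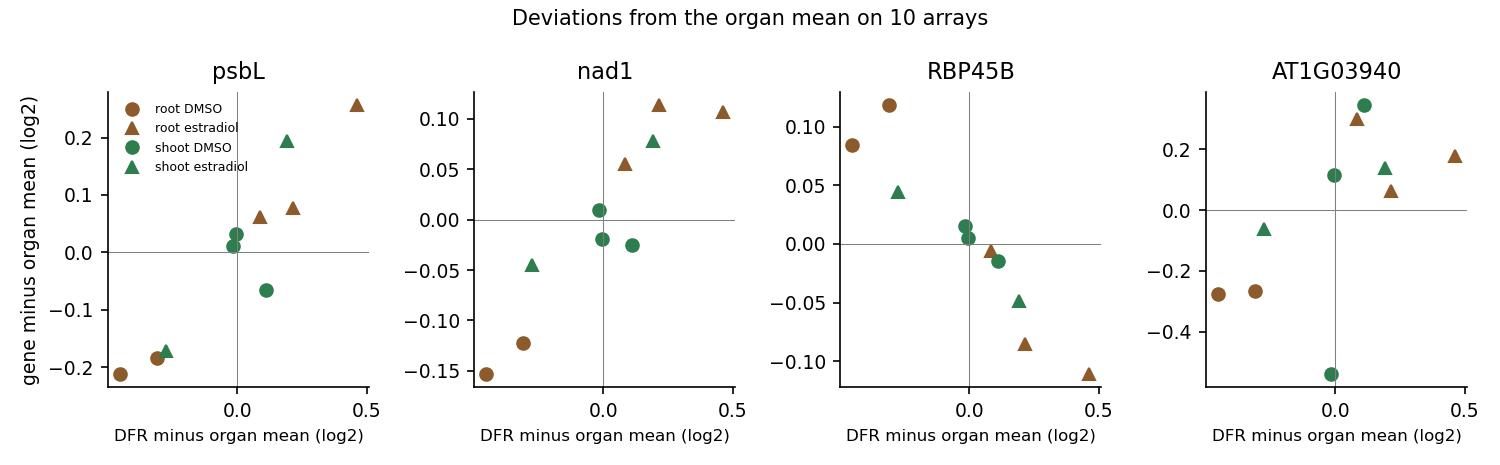
Deviation of 4 genes from their organ mean against that of DFR (both log2) on the 10 arrays, with brown for roots, green for shoots, circles for DMSO and triangles for estradiol. psbL and nad1 rise with DFR (r = 0.934 and 0.923), RBP45B falls (-0.948) and AT1G03940, the flavonoid gene with the highest r, scatters (0.594); root DMSO arrays lie at the left end of each panel.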

How the data were processed

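Total RNA of 12 samples was hybridised to one-colour Affymetrix arrays. Affymetrix Expression Console 1.3 is the tool that the submitters' processing notes name, with no settings stated. The scale of the deposited table, also unstated, was read as log2 from its range of 0.19 to 13.84. Medians were 4.99 to 5.09 on the arrays, whose number limits the precision.

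Of 38408 features, 16722 were annotated to 1 gene, 759 to several and 20927 to none listed. Symbols were updated through the RefSeq gene table of TAIR10.1, which matched 16574 of the 16722. For a gene with several features the one of highest mean was used. No genome coordinates or sequences are given.

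A mean per group was fitted to all features with limma 3.58.1 in R 4.3.3 (lmFit, eBayes, two-sided), once on 12 arrays and once on 10, and p-values were adjusted by Benjamini-Hochberg over 38408 features. A call is an adjusted p under 0.05. The fit was tested on simulated data. Genes named were DFR, all measured members of the lists, and the 5 genes in each organ and 8 over both with the highest r with DFR, with the 3 lowest. The gene, lists and tests were chosen with earlier results of these data known.

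Same-numbered arrays were not taken as pairs, since no label says that a replicate number marks a shared batch. The check in the closing section cannot decide it. Alternatives were other scalings, array weights, an intensity trend, a level filter, single-gene features, the compared groups alone, the replicate block and single arrays left out.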

Additional observations from a re-analysis of the deposited data

How the results depend on the processing

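For DFR on 12 arrays, array weights, which gave little weight to the 2 arrays with the profile of the other organ, turned the root difference from -0.95 to 0.49 and leaving both out gave 0.64. The organ difference under DMSO became -5.09 with weights and -5.22 with both arrays left out. Under estradiol it became -4.28 with weights and -4.51 with both arrays left out, and limma called all of these. Leaving out single arrays of the 12 gave -1.78 to 0.64 for the root difference, -2.26 to 0.88 for the difference of effects, -5.22 to -2.80 for the organ difference under DMSO and -4.51 to -2.06 under estradiol. Of the 10, it gave -0.30 to 0.16 for the shoot difference. Over the alternatives the limma adjusted p of the 10-array organ difference of DFR ran from 9.793e-09 to 6.572e-05 under DMSO and from 2.147e-08 to 6.403e-05 under estradiol. That of the root difference ran from 0.496 to 1, of the shoot difference from 0.634 to 0.990 and of the difference of effects from 0.564 to 1.

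Counts of called features moved too. On 12 arrays, weights gave 1 in roots, 2 for the difference of effects, 16916 between organs under DMSO and 15998 under estradiol. Leaving both arrays out gave 1, 1, 15038 and 15096. Single arrays left out gave 0 to 1 in roots, 0 to 9695 between organs under DMSO and 0 to 8509 under estradiol. The organ count under estradiol was 0 with the compared groups alone, with single-gene features and with the replicate block. On 10 arrays, single-gene features or the block gave 0 in roots and 0 for the difference of effects, and single-gene features, a smaller number tested, gave 7692 and 7632 between organs. Single arrays left out gave 0 to 1 in roots, 0 to 4 in shoots and 0 to 23 for the difference of effects.

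Whether the replicate numbers pair the arrays was not settled. On 10 arrays, deviations from group means correlated between -0.02 and 0.12 for the same number (13 pairs, median 0.046). For different numbers they correlated between -0.12 and 0.11 (24 pairs, median -0.026). In a group of 2 arrays the deviations mirror each other by construction, so these values cannot decide it. With the replicate block the DFR root difference was 0.60 (limma adjusted p = 1), the shoot difference -0.03, the difference of effects -0.63, and the organ differences -5.18 and -4.55. On 12 arrays the block left the root difference at -0.95. It changed no call for DFR.

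Small differences changed sign. BAN under DMSO was 0.061 with quantile normalization, and under estradiol -0.045 to 0.19 with single arrays left out. UGT78D2 under DMSO was -0.061 with the block and -0.14 to 0.22 with single arrays left out. Leaving out single arrays also gave -0.29 to 0.011 for its shoot effect, -0.033 to 0.34 for the shoot effect of AT4G14090, and under estradiol -0.64 to 0.16 for UGT78D3 and -0.40 to 0.026 for AT1G25460. Using arrays as titled reversed r for HRGP1 (-0.939), CYS1 (-0.813), AT5G66930 (-0.925), THFS (-0.669), nad1 (-0.698), AT2G07678 (-0.794), AT1G19290 (-0.334), AT1G65920 (-0.081) and RBP45B (0.345). Arrays with the profile of the other organ are included there, so the organ difference enters these r values. The cause of each reversal was not tested. No second DFR feature existed to try, the compared groups alone were not run for the difference of effects, and members under the level filter gave no value there.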
